A study of Mus musculus with 17 samples.

Results

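The 31 genes described here encode subunits of receptors for glutamate and γ-aminobutyric acid (GABA), and they were taken by symbol from a fixed list, which does not hold every gene of these families, out of the 26556 genes counted in 17 RNA-seq libraries of purified mouse astrocytes. They comprise 4 AMPA receptor genes (*Gria1* to *Gria4*), 5 kainate receptor genes (*Grik1* to *Grik5*), 6 NMDA receptor genes (*Grin1*, *Grin2a* to *Grin2d*, and *Grin3a*), 6 metabotropic glutamate receptor genes (*Grm2* to *Grm5*, *Grm7*, and *Grm8*), 8 GABA-A receptor genes (*Gabra2* to *Gabra5*, *Gabrb1*, *Gabrb2*, *Gabrg1*, and *Gabrg3*), and both GABA-B receptor genes (*Gabbr1* and *Gabbr2*). Each library was prepared from fluorescent cells that were purified by FACS at postnatal day 7 (P7) from 4 pooled brains of *Gfap::Gfp* mice of the FVB strain, in which the promoter of the astrocytic gene *Gfap* drives green fluorescent protein. Of the 17 libraries, 4 were of the somatosensory cortex and 13 of thalamic nuclei, with 5 from the dorsolateral geniculate nucleus (dLG, visual), 4 from the ventral posteromedial nucleus (VPM, somatosensory), and 4 from the ventromedial geniculate nucleus (MGv, auditory). No group received a treatment, and the medium in which the tissue of every group was dissociated contained kynurenic acid and APV, which block ionotropic glutamate receptors. The comparisons asked which receptor genes differed between astrocytes of the thalamus and of the cortex, and between astrocytes of the 3 nuclei. Since a library is a pool of brains, p-values measure the spread between these pools, and the sources used here do not state whether pools of different regions came from the same brains.

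Glutamate and GABA are the main excitatory and inhibitory transmitters of the brain, and astrocytes take both up and also sense them. AMPA, kainate, and NMDA receptors are ion channels that glutamate opens, metabotropic receptors act through G proteins, GABA-A receptors are chloride channels, and GABA-B receptors are pairs of *Gabbr1* and *Gabbr2* proteins that act through G proteins. The subunits that assemble into a channel set its properties. AMPA receptors that contain the *Gria2* product (GluA2) pass little calcium, and NMDA receptors with different GluN2 subunits differ in how fast they close and in their block by magnesium. Metabotropic receptors 3 and 5, from *Grm3* and *Grm5*, are known as the main glutamate-sensing G protein–coupled receptors of astrocytes in the young brain.

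Between 18213687 and 50366363 reads were counted on genes per library, the highest in replicate a of the cortex and at most 21519981 in any other. Levels are given as CPM, read counts scaled to a common library size with edgeR's TMM factors, and 3 counts corresponded to between 0.0596 and 0.165 CPM, limits that cover counting error only. The 8 astrocyte markers summed to between 11652 and 12577 CPM in the cortex (median 12339). They summed to between 6800 and 7873 CPM in the dLG and between 6006 and 8313 in the VPM, all below the cortex, and to between 5315 and 14254 in the MGv (median over the thalamus 7485), and none of them was at or under 3 counts in every library of a group. The astrocyte markers were thus present in every group, and so were markers of other cells. Over all libraries, the 6 markers of oligodendrocyte precursors summed to between 5507 and 7926 CPM, the 6 of oligodendrocytes to between 1285 and 5734, the 10 of neurons to between 696 and 2199, the 2 of excitatory neurons to between 24.0 and 171, and the 3 of inhibitory neurons to between 15.6 and 48.2. Microglial markers (6 genes) reached at most 91.8 CPM and endothelial and mural markers (5 genes) at most 64.6. In bulk libraries such as these, fewer cells of a type and less RNA per cell cannot be told apart, and precursors and neurons express many of the 31 genes.

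Levels of the 31 genes were divided by exon length (CPM per kb) for comparisons between genes. *Grm3* was highest at 119.9 CPM per kb as the mean of the 4 groups, followed by *Gabbr1* (58.9), *Gabrg1* (41.4), *Gria2* (32.0), and *Gabbr2* (29.6). These 5 genes lay above 92.4% of all genes with a known length, and *Grm3* above 98.7%. At the lower end, *Grm8* (0.323) and *Grin2a* (0.1501) were lowest, and the obligatory NMDA receptor subunit *Grin1* was at 2.92. The non-obligatory subunit *Grin3a*, which reduces calcium flow through NMDA receptors, was at 13.9 and so the most abundant NMDA receptor transcript. Over the 13 thalamic libraries the mean ± SD ranges of neighbours overlapped for *Grik5*, *Gria4*, *Grin3a*, *Gabra3*, *Grm5*, and *Gria3*, whose order differed between the 4 groups. Averaged over the 4 groups these genes lay between 13.4 and 17.1 CPM per kb. Summed by family in the cortex, metabotropic glutamate receptor genes reached 167 ± 30.7 (SD, n = 4), GABA-A receptor genes 89.5 ± 15.3, AMPA receptor genes 77.0 ± 10.5, GABA-B receptor genes 62.5 ± 6.16, kainate receptor genes 27.1 ± 3.65, and NMDA receptor genes 17.1 ± 1.69 CPM per kb.

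**Figure D1:**
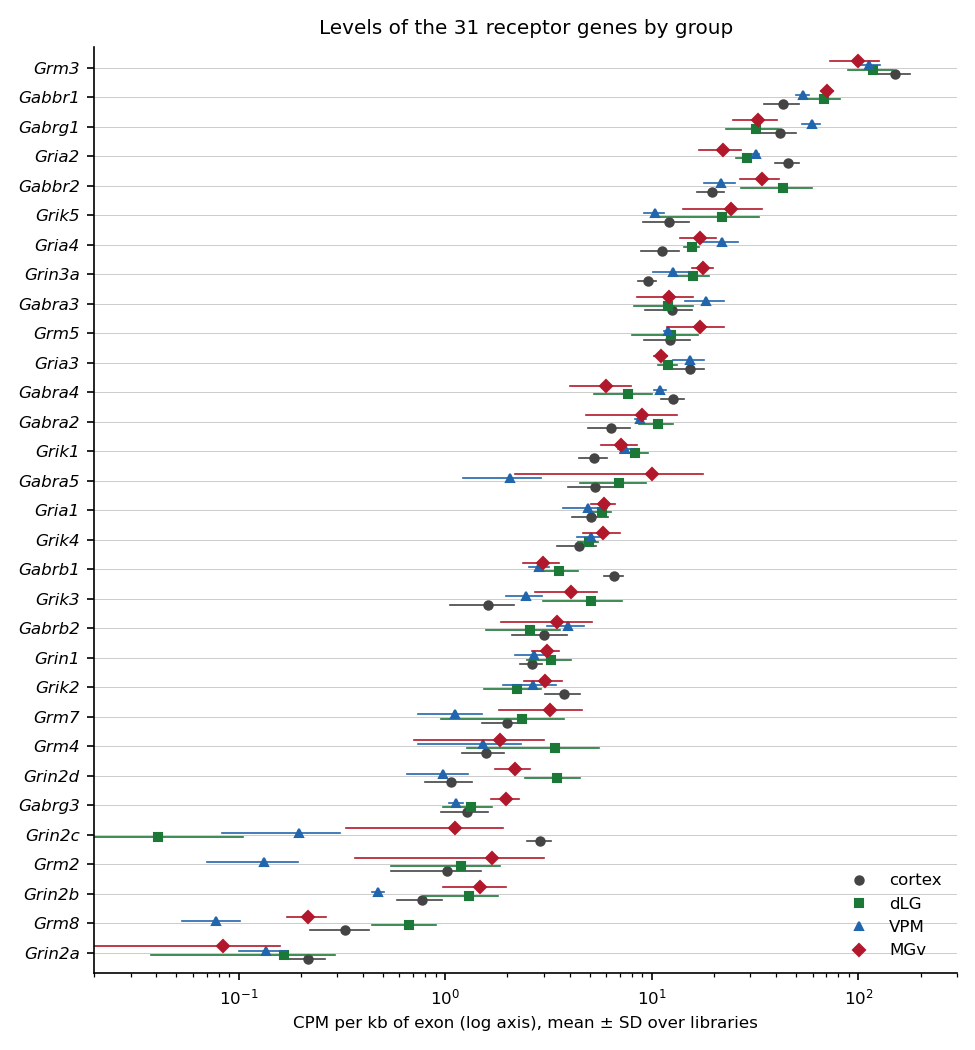
Level of each of the 31 genes in CPM per kb of exon (log axis), ordered by the mean of the 4 groups; symbols are group means (cortex n = 4, dLG n = 5, VPM n = 4, MGv n = 4) and lines the SD, cut at the left edge where they reach below it. *Grm3* leads in every group, and the symbols of *Grin2c*, *Grm2*, and *Grm8* lie farthest apart.

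Some members share sequence or exons with other genes. The share of 50-base stretches of the longest transcript that also occurred in another gene was 19.5% for *Grin1*, 14.3% for *Grin2a*, 9.29% for *Grin2d*, and 8.56% for *Grm2*, and at most 4.00% for the others. Antisense genes share 13.5% of the exonic length of *Grin1*, 9.66% of that of *Grin2d*, and 9.60% of that of *Grm2*. The library kit did not mark strand, so reads from these shared stretches cannot be assigned to a gene by strand.

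Between thalamus and cortex, 9 of the 31 genes were called by edgeR's quasi-likelihood test at a Benjamini-Hochberg (BH) adjusted p under 0.1 over the 17856 genes tested. All 31 passed the filter on low counts. In thalamic astrocytes 6 were higher (*Gria4*, *Grik1*, *Grik3*, *Grin3a*, *Gabbr1*, and *Gabbr2*), against 5.45% of all genes tested, and 3 were lower (*Gria2*, *Grin2c*, and *Gabrb1*), against 5.93%. The median log2 fold change (log2FC) of the 31 genes was 0.18 and that of all genes 0.02. Every thalamic library lay above every cortical library for 1 gene, *Gria4* (1.67% of all genes), and below for *Gria2*, *Grin2c*, and *Gabrb1* (3.09% of all genes). Of the 9 calls, 7 held without each of the 17 libraries in turn and in every alternative processing, and the exceptions were *Grin2c* and *Gabbr2*.

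**Figure D2:**
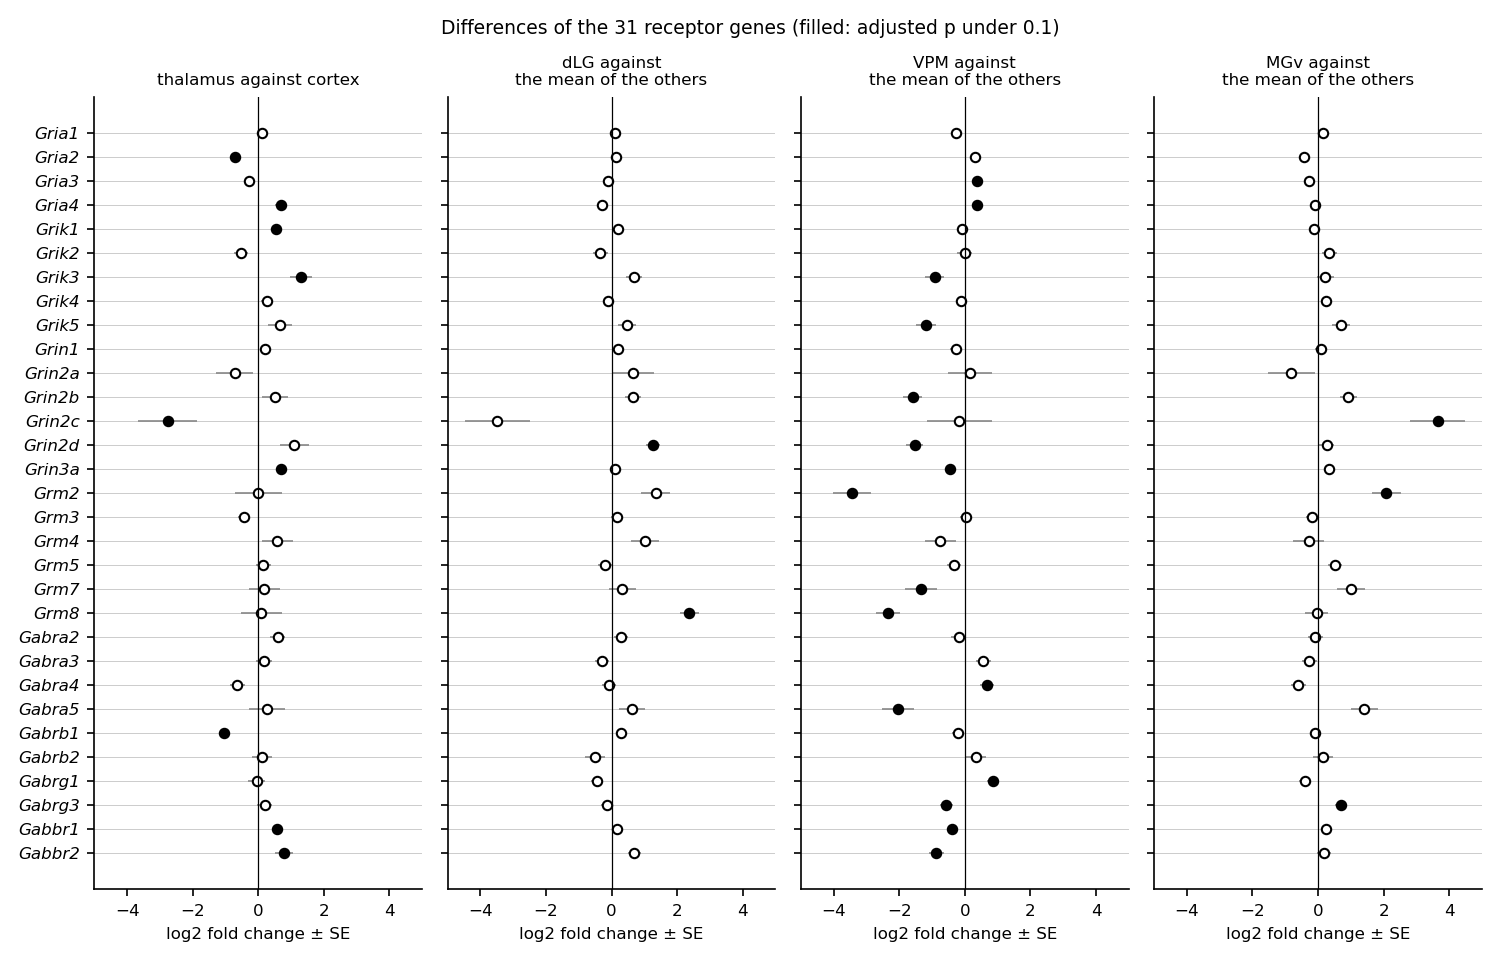
log2FC of the 31 genes in 4 comparisons, with the SE as a line; filled symbols have a BH-adjusted p under 0.1. Between thalamus and cortex 6 filled symbols lie above 0 and 3 below, and in the VPM 4 lie above 0 and 12 below.

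AMPA receptor genes moved in opposite directions. *Gria2* (chromosome 3, 80681450 to 80802835, GRCm38) was at 840.2, 673, 627, and 688 CPM in the cortical libraries. In the dLG it was at 482, 402, 436, 518, and 406 CPM, in the VPM at 515, 478, 504, and 478, and in the MGv at 448, 255, 334, and 336. The groups did not overlap, since the highest thalamic library lay below the lowest cortical one, and 3 of the MGv libraries were the lowest of all. In the fit *Gria2* was lower in the thalamus (log2FC -0.72, SE 0.15, adjusted p = 0.0034). *Gria4*, whose product forms fast-gated AMPA receptors, was at 83.8, 81.9, 55.9, and 60.0 CPM in the cortex. Its thalamic libraries ranged from 88.3 CPM in the dLG to 160.5 in the VPM, with a median of 101, and all lay above the cortical ones (log2FC 0.68, SE 0.17, adjusted p = 0.017). *Gria1* (log2FC 0.11, SE 0.16, adjusted p = 0.74) and *Gria3* (log2FC -0.27, SE 0.14, adjusted p = 0.30) were not called.

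The subunit makeup of AMPA receptor transcripts differed between the regions. *Gria2* made up 59.1% ± 2.58 (SD, n = 4) of the summed level per length of *Gria1* to *Gria4* in the cortex and 43.2% ± 4.62 (SD, n = 13) in the thalamus, a difference of -15.9 percentage points (2-sided exact permutation test over 2380 arrangements, p = 0.00042, the smallest this design allows, BH-adjusted over 4 shares p = 0.00084). The share was 46.4% ± 2.61 (SD, n = 5) in the dLG, 43.4% ± 4.18 (SD, n = 4) in the VPM, and 39.2% ± 4.55 (SD, n = 4) in the MGv, all libraries below the lowest cortical share of 55.6%. *Gria4* took 14.4% ± 1.70 (SD, n = 4) in the cortex and 28.0% ± 3.26 (SD, n = 13) in the thalamus, whereas *Gria3* took 19.8% ± 1.68 (SD, n = 4) and 19.9% ± 2.10 (SD, n = 13). With each library left out, the difference in the *Gria2* share ranged from -17.0 to -15.0 points.

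GluA2 owes its low calcium permeability to RNA editing of 1 codon in the channel pore, the Q/R site. The stretch of the transcript around this codon is printed here, from GENCODE reference transcripts, for the 6 members that were searched for it. The other members were not searched. The capitals mark that codon in each sequence, written 5′ to 3′ as in the reference transcript, with 12 bases on either side.
Gria1: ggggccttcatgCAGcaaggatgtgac
Gria2: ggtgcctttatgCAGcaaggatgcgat
Gria3: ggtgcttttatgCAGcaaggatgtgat
Gria4: ggtgcctttatgCAAcaaggatgtgac
Grik1: ggagctctcatgCAGcaaggatcggag
Grik2: ggagctctcatgCAGcaaggttctgag
The codon lies in GRCm38 on chromosome 3 at 80706911 to 80706913 on the minus strand for *Gria2*, in exon 11 of 16 of the transcript read, and on chromosome 9 at 4464137 to 4464139 on the minus strand for *Gria4*, in exon 12 of 17. It lies on chromosome 16 at 87940542 to 87940544 for *Grik1* and on chromosome 10 at 49244329 to 49244331 for *Grik2*, both on the minus strand, and on chromosome 11 at 57243094 to 57243096 for *Gria1* and chromosome X at 41610265 to 41610267 for *Gria3*, both on the plus strand. *Gria2* and *Gria3* differ in 2 of the 27 bases and *Grik1* and *Grik2* also in 2. *Gria2*, *Grik1*, and *Grik2* are the members known to be edited at this codon. Counts per gene do not tell edited from unedited transcripts, so editing was not measured here.

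Kainate receptor genes were higher or did not pass the test. *Grik3*, a low-affinity kainate receptor subunit, was at 11.7, 10.3, 21.4, and 14.1 CPM in the cortex, at 31.01, 47.5, 51.4, 24.4, and 72.4 in the dLG, at 27.9, 20.0, 22.5, and 17.8 in the VPM, and at 33.7, 51.0, 21.8, and 39.5 in the MGv. It was higher in the thalamus (log2FC 1.30, SE 0.34, adjusted p = 0.021), with the highest libraries in the dLG and MGv and an overlap only of cortex replicate c with the VPM. *Grik1* was at 31.5, 38.1, 29.9, and 41.9 CPM in the cortex and ranged from 36.4 to 64.9 CPM in the thalamus, with a median of 49.5 (log2FC 0.54, SE 0.14, adjusted p = 0.021). Replicates b and d of the cortex overlapped with replicate b of the MGv. *Grik2* averaged 49.9 ± 9.74 CPM in cortical libraries (SD, n = 4) against 34.5 ± 9.61 CPM in thalamic ones (n = 13) and was not called (log2FC -0.53, SE 0.22, adjusted p = 0.16). Its share among *Grik1* to *Grik3* per length was 35.3% ± 4.82 (SD, n = 4) in the cortex and 18.6% ± 5.48 (SD, n = 13) in the thalamus, a difference of -16.7 percentage points with no overlap between the regions (exact permutation test, p = 0.00042, adjusted p = 0.00084). Within the 10 libraries of the largest series of library numbers in the labels, the difference was -11.1 points (exact permutation test over 45 arrangements, adjusted p = 0.089). The high-affinity subunits *Grik4* (log2FC 0.25, SE 0.15, adjusted p = 0.38) and *Grik5* (log2FC 0.66, SE 0.36, adjusted p = 0.31) were not called. *Grik5* spread widely between thalamic libraries, from 46.2 CPM in the VPM to 203 CPM in the dLG.

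**Figure D3:**
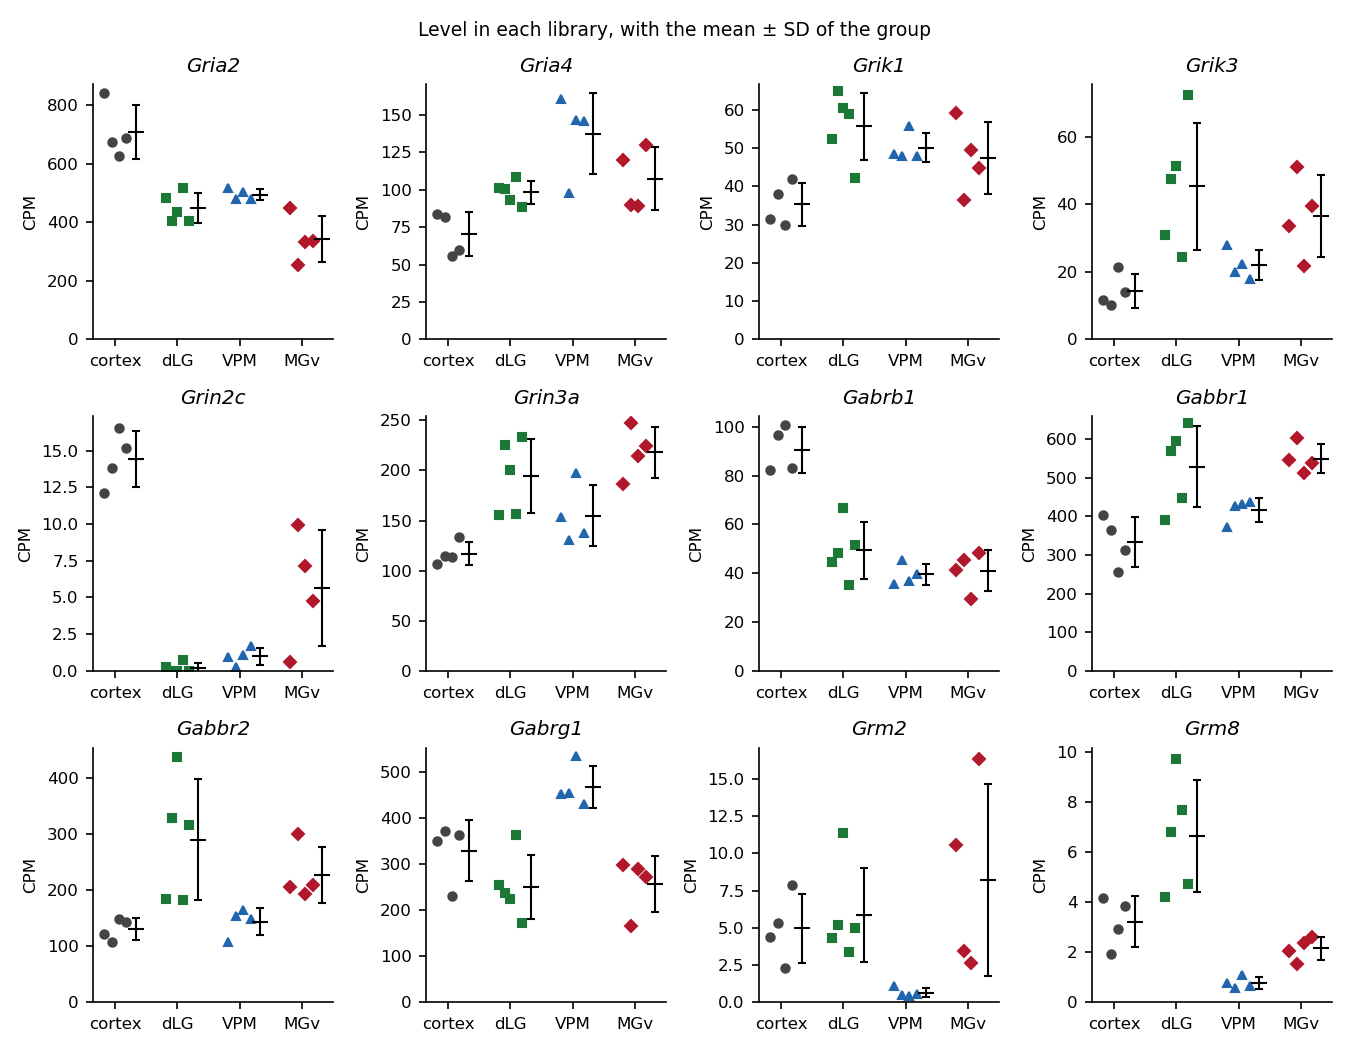
CPM of 12 receptor genes in each library (symbols) with the mean ± SD of the group beside them (cortex n = 4, dLG n = 5, VPM n = 4, MGv n = 4); each axis starts at 0. The cortical libraries lie above all others for *Gria2*, *Grin2c*, and *Gabrb1*. The VPM libraries lie above the other nuclei for *Gabrg1* and below them for *Grm2*, *Grm8*, and *Gabbr2*.

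Among NMDA receptor genes, *Grin2c*, a GluN2 subunit that is weakly blocked by magnesium, had the largest fold change of the 31 genes between the regions. It was at 12.1, 13.8, 16.5, and 15.2 CPM in the cortex, with between 281 and 561 counts per library. In the dLG it was at 0.281, 0, 0, 0.746, and 0 CPM, and 3 of the 5 libraries had 0 counts, which allows up to 3 counts or between 0.140 and 0.158 CPM in each. The VPM libraries were at 0.955, 0.279, 1.05, and 1.67 CPM and the MGv libraries at 0.6251, 9.94, 7.17, and 4.76. All thalamic libraries lay below the cortical ones, and the nearest were 3 libraries of the MGv. The difference was log2FC -2.77, SE 0.91, adjusted p = 0.070, and its adjusted p was 0.16 with DESeq2, between 0.13 and 0.18 without any 1 of the 4 cortical libraries, and 0.10 without replicate a of the MGv. *Grin3a* was at 107, 114, 114, and 133 CPM in the cortex and ranged from 131 CPM in the VPM to 247 in the MGv, with a thalamic median of 198 (log2FC 0.70, SE 0.16, adjusted p = 0.0092). The lowest VPM library overlapped with the highest of the cortex. *Grin2d*, the GluN2 subunit with the slowest closing, averaged 7.13 ± 1.80 CPM in cortical libraries (SD, n = 4) against 15.3 ± 8.35 CPM in thalamic ones (n = 13), and was not called (log2FC 1.10, SE 0.43, adjusted p = 0.13), but it was with DESeq2 (adjusted p = 0.059) and with the 4 groups fitted separately (adjusted p = 0.025). *Grin1* (log2FC 0.21, SE 0.16, adjusted p = 0.51), *Grin2a* (log2FC -0.72, SE 0.57, adjusted p = 0.51), and *Grin2b* (log2FC 0.50, SE 0.40, adjusted p = 0.51) were not called.

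Among GluN2 transcripts per length, *Grin2c* thus took 58.3% ± 2.87 (SD, n = 4) in the cortex and 10.5% ± 11.8 (SD, n = 13) in the thalamus, and *Grin2d* 21.6% ± 3.44 (SD, n = 4) and 57.0% ± 12.5 (SD, n = 13), differences that were not tested. Exon lengths join all annotated transcripts of a gene and span 5037 bases for *Grin2c* and 24842 for *Grin2b*. The order of the GluN2 shares within a group depends on this division. *Grin2b*, the GluN2 subunit of the young brain that closes slowly, took 15.7% ± 2.51 (SD, n = 4) in the cortex and 28.0% ± 9.23 (SD, n = 13) in the thalamus, a difference of 12.3 percentage points (exact permutation test, p = 0.022, adjusted p = 0.030), with an overlap between the regions. Library numbers in the labels fall into 3 series, whose meaning is not stated. Within the 10 libraries of the largest series, in which 2 cortical libraries allow fewer arrangements, the difference was 13.3 points (exact permutation test, adjusted p = 0.18).

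**Figure D4:**
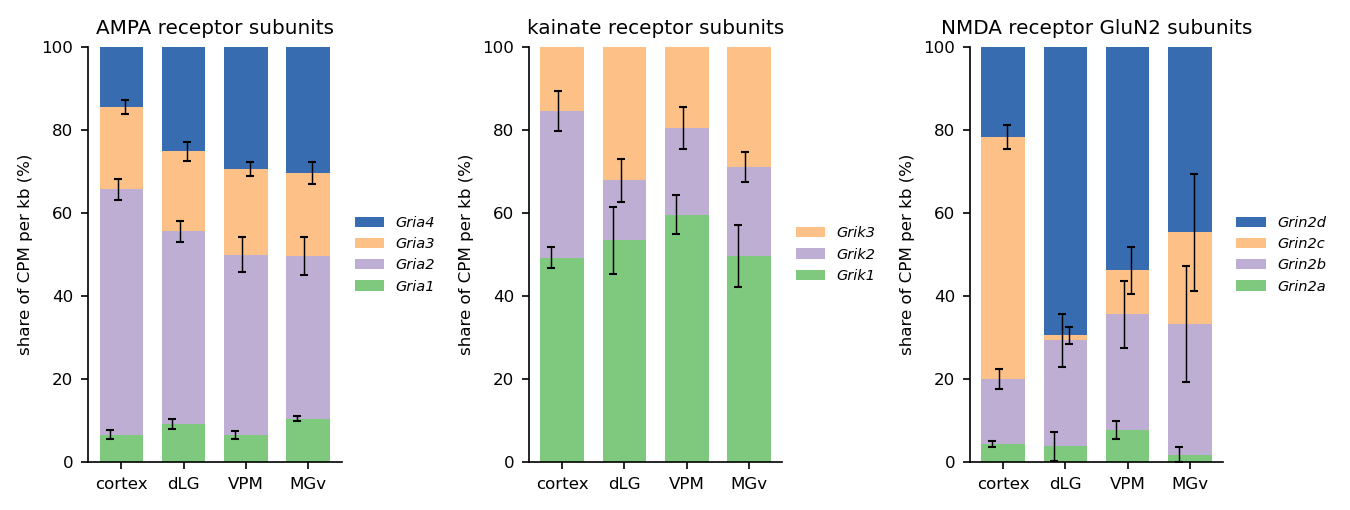
Mean share of each subunit gene in the summed CPM per kb of its family, in percent, for AMPA receptor genes, kainate receptor genes *Grik1* to *Grik3*, and the GluN2 genes; bars start at 0 and black lines are the SD of the share of the segment that ends there (cortex n = 4, dLG n = 5, VPM n = 4, MGv n = 4). The *Gria2* and *Grik2* segments are longest in the cortex, and *Grin2c* fills 58.3% of the cortical GluN2 bar.

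Of the 6 metabotropic glutamate receptor genes, 0 were called between thalamus and cortex by edgeR or by DESeq2, and 1, *Grm3*, had an unadjusted p under 0.05 by edgeR. *Grm3* averaged 456 ± 86.2 CPM in cortical libraries (SD, n = 4) against 337 ± 73.6 in thalamic ones (n = 13) (log2FC -0.44, SE 0.17, adjusted p = 0.14), and *Grm5*, which couples to calcium release, at 126 ± 31.4 and 140.3 ± 44.7 (log2FC 0.16, SE 0.23, adjusted p = 0.76). The presynaptic-type receptors *Grm4*, *Grm7*, and *Grm8* had log2FC of 0.58, 0.18, and 0.10 with SEs of 0.48, 0.47, and 0.63. *Grm3* made up 99.3% ± 0.304 (SD, n = 4) of *Grm2* and *Grm3* per length in the cortex and 99.1% ± 0.882 (SD, n = 13) in the thalamus (exact permutation test of the difference, p = 0.58, adjusted p = 0.58).

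GABA-A receptor genes had fold changes of both signs, also within the gene cluster on chromosome 5 that holds *Gabrg1*, *Gabra2*, *Gabra4*, and *Gabrb1* between 70751047 and 72149037. *Gabrb1*, a β subunit, was at 82.1, 96.5, 101, and 82.9 CPM in the cortex. In the thalamus it was at 44.7, 48.2, 66.9, 35.2, and 51.5 CPM in the dLG, 35.8, 45.6, 37.0, and 39.6 in the VPM, and 41.4, 45.2, 29.4, and 48.3 in the MGv. All thalamic libraries lay below the cortical ones, with the nearest in the dLG, and *Gabrb1* had the lowest p of the 31 genes (log2FC -1.05, SE 0.15, adjusted p = 7.5e-05). Its neighbours had a log2FC of -0.63 ± 0.24 (SE) for *Gabra4*, 0.59 ± 0.22 for *Gabra2*, and -0.05 ± 0.26 for *Gabrg1*, with adjusted p of 0.12, 0.12, and 0.95 by edgeR's quasi-likelihood test. *Gabra2* was called in 5 of 10 alternatives, among them DESeq2 (adjusted p = 0.066), and *Gabra4* in 2, with the 4 groups fitted separately (adjusted p = 0.023) and with a trend on GC content removed (adjusted p = 0.068). *Gabra3*, *Gabra5*, *Gabrb2*, and *Gabrg3* had log2FC between 0.12 and 0.26 and were not called.

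Both GABA-B receptor genes were higher in the thalamus. *Gabbr1*, which binds GABA, was at 404, 364, 256, and 312 CPM in the cortex and ranged from 372 CPM in the VPM to 641 in the dLG, with a median of 513 (log2FC 0.58, SE 0.15, adjusted p = 0.022). *Gabbr2*, which couples the pair to G proteins, was at 122, 107, 149, and 143 CPM in the cortex and ranged from 108 CPM in the VPM to 437 in the dLG (log2FC 0.79, SE 0.28, adjusted p = 0.093). The VPM libraries of both genes were in or near the cortical range. The call of *Gabbr2* was lost without each of 10 libraries, all 4 of the cortex, replicates a, b, and e of the dLG, and replicates a, b, and d of the MGv (adjusted p between 0.10 and 0.27), and with the library number series or a marker level in the fit (adjusted p between 0.11 and 0.14).

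Marker levels beside these differences were as follows. Of the 8 astrocyte markers, 3 were lower and 1 was higher in the thalamus, and of the 10 neuronal markers 1 was lower and 1 higher. Of the excitatory markers 1 of 2 was higher, and of the endothelial and mural markers 1 of 5 was lower. By edgeR 0 of 6 precursor, 0 of 6 oligodendrocyte, 0 of 6 microglial, and 0 of 3 inhibitory markers were called, of which 0, 0, 1, and 1 had an unadjusted p under 0.05. With the neuronal marker level of each library in the fit, 8 of the 31 genes were called and with the precursor marker level 9, in each case all of the 9 but *Gabbr2*, with *Gabra2* added under the latter. The part of cell composition in the differences was otherwise not tested.

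Of 34 genes for proteins that escort or anchor these receptors (auxiliary subunits and scaffolds), 5 were higher (against 5.45% of all genes) and 3 lower (against 5.93%) in the thalamus, with a median log2FC of 0.27 against 0.02 for all genes. *Neto2*, an auxiliary subunit of kainate receptors, fell by 1.00 on the log2 scale (SE 0.12, edgeR adjusted p = 1.7e-05). *Cnih3*, an AMPA receptor escort, fell by 1.54 (SE 0.36, edgeR adjusted p = 0.010), and *Cacng3*, of the transmembrane AMPA receptor regulatory proteins, fell by 2.57 (SE 0.86, edgeR adjusted p = 0.074). *Kctd12*, which binds GABA-B receptors, was higher by 2.44 (SE 0.43, edgeR adjusted p = 0.00090), although 64.2% of its exonic length is shared with other annotated genes. The scaffolds *Homer2* (log2FC 0.94, SE 0.24, edgeR adjusted p = 0.017) and *Shank1* (1.12, SE 0.30, adjusted p = 0.025) were also higher.

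Between the nuclei, the VPM stood apart. Relative to the mean of the dLG and MGv, 16 of the 31 genes were called over 17319 genes tested, 4 higher (against 7.07% of all genes) and 12 lower (against 9.78%). The median log2FC was -0.27 for the 31 genes and -0.02 for all genes. All VPM libraries lay above all those of the other nuclei for *Gabra4* and *Gabrg1* (2 genes, against 4.05% of all genes) and below them for *Grin2b*, *Grin2d*, *Grm2*, *Grm8*, and *Gabbr2* (5 genes, against 2.62%). Without each of the 13 libraries in turn, 6 of the 16 calls held throughout, those of *Grin2b*, *Grin2d*, *Grm2*, *Grm8*, *Gabra5*, and *Gabrg1*. The other 10 were lost without at least 1 library, and 7 genes were called without VPM replicate a, 9 without replicate c, and 8 without replicate d. Calls over all genes also fell, from 1224 higher and 1693 lower to 379 and 618 without replicate a. They were 468 and 651 without replicate c, and 593 and 697 without replicate d.

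Of the 6 metabotropic receptor genes, 3 were lower in the VPM, with the largest fold change of the 31 genes in *Grm2*. *Grm2*, which couples to inhibitory G proteins, was at 1.10, 0.502, 0.450, and 0.542 CPM in the VPM, at 4.30, 5.21, 11.4, 3.38, and 4.99 in the dLG, and at 10.5, 3.42, 2.66, and 16.3 in the MGv. Every VPM library was under the lowest library of the other nuclei (log2FC -3.43, SE 0.58, adjusted p = 0.0042). *Grm8* was at 0.764, 0.558, 1.10, and 0.640 CPM in the VPM, 4.21, 6.83, 9.73, 7.71, and 4.74 in the dLG, and 2.07, 1.55, 2.37, and 2.63 in the MGv. The nuclei were ordered without overlap, with the dLG above the MGv and the MGv above the VPM. *Grm8* differed from the mean of the others both in the VPM (log2FC -2.33, SE 0.37, adjusted p = 0.0029) and in the dLG (log2FC 2.37, SE 0.30, adjusted p = 0.00066). *Grm7* was also lower in the VPM (log2FC -1.33, SE 0.48, adjusted p = 0.087), whereas *Grm3*, *Grm4*, and *Grm5* were not called, *Grm3* at a log2FC of 0.02 ± 0.18 (SE).

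Of the GluN2 genes, *Grin2b* and *Grin2d* were lower in the VPM. *Grin2b* was at 12.03, 12.1, 10.6, and 12.2 CPM in the VPM, 33.4, 35.0, 32.8, 12.5, and 47.3 in the dLG, and 53.9, 29.4, 26.5, and 35.8 in the MGv (log2FC -1.58, SE 0.29, adjusted p = 0.0069). The VPM libraries lay close together, and replicate d of the dLG came closest to them. *Grin2d* was at 7.69, 3.85, 8.66, and 5.71 CPM in the VPM, 15.9, 28.7, 27.4, 15.2, and 27.9 in the dLG, and 11.7, 18.2, 13.1, and 14.7 in the MGv. It was lower in the VPM (log2FC -1.53, SE 0.26, adjusted p = 0.0047) and higher in the dLG (log2FC 1.27, SE 0.22, adjusted p = 0.014), where its 2 lowest libraries overlapped with the MGv. *Grin3a* was lower in the VPM by a smaller amount (log2FC -0.45, SE 0.15, adjusted p = 0.068), and *Grin1* was not called (log2FC -0.27, SE 0.17, adjusted p = 0.35).

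Of the kainate receptor genes 2 of 5, and both GABA-B receptor genes, were lower in the VPM than the mean of the other nuclei. *Grik5* (log2FC -1.19, SE 0.31, adjusted p = 0.031) and *Grik3* (log2FC -0.92, SE 0.28, adjusted p = 0.050) were called, whereas *Grik1*, *Grik2*, and *Grik4* had log2FC of -0.12 or nearer to 0 and were not called. *Gabbr2* was at 108, 154, 164, and 149 CPM in the VPM and at least 182 CPM in the other nuclei (log2FC -0.86, SE 0.22, adjusted p = 0.029), and *Gabbr1* was lower to a lesser extent (log2FC -0.40, SE 0.13, adjusted p = 0.064). *Gabra5*, the α subunit of extrasynaptic GABA-A receptors, was at 8.36, 2.56, 6.35, and 7.34 CPM in the VPM, at 24.8, 21.7, 26.7, 22.1, and 8.17 in the dLG, and at 59.2, 10.2, 12.3, and 36.9 in the MGv. Replicate a of the VPM overlapped with replicate e of the dLG (log2FC -2.04, SE 0.48, adjusted p = 0.020). *Gabrg3*, beside *Gabra5* on chromosome 7, was lower too (log2FC -0.56, SE 0.19, adjusted p = 0.074).

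Genes that were higher in the VPM belonged to GABA-A and AMPA receptors. *Gabrg1*, a γ subunit, was at 451, 454, 534, and 429.6 CPM in the VPM, 254, 237, 225, 363, and 171 in the dLG, and 298, 167, 288, and 271 in the MGv, with no overlap (log2FC 0.85, SE 0.17, adjusted p = 0.0098). *Gabra4*, also on chromosome 5, was at 63.6, 69.9, 71.1, and 62.7 CPM in the VPM and between 22.3 and 61.5 CPM in the others (log2FC 0.67, SE 0.21, adjusted p = 0.061). Of the same cluster, *Gabra2* and *Gabrb1* had log2FC of -0.19 and -0.22 and were not called. *Gria3* (log2FC 0.38, SE 0.11, adjusted p = 0.050) and *Gria4* (log2FC 0.39, SE 0.13, adjusted p = 0.081) were higher by less, and *Gria2* was not called (log2FC 0.30, SE 0.12, adjusted p = 0.14).

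Other features of the VPM libraries moved with these differences. All 6 oligodendrocyte markers were called higher in the VPM and all 6 microglial markers lower, and their summed levels were 1985 to 5734 CPM and 6.68 to 11.2 CPM in the VPM, 1498 to 3306 and 10.9 to 91.8 in the dLG, and 1285 to 2216 and 11.8 to 54.5 in the MGv. Of the 3 markers of inhibitory neurons 2 were lower, and *Slc32a1* was at or under 3 counts in every VPM library, whereas of the 10 neuronal markers 0 were called by edgeR and 1 had an unadjusted p under 0.05. Of the astrocyte markers 2 of 8 were higher and 1 lower, of the precursor markers 1 of 6 was higher and 2 lower, and of the excitatory markers 1 of 2 was higher. Over all genes, the median log2FC in the VPM went from 0.12 in the fifth of genes with the lowest GC content to -0.21 in the fifth with the highest. The 4 genes higher in the VPM had transcripts of 35.3% to 44.3% GC and the 12 lower ones of 41.9% to 65.0%. With the trend on GC content removed, all 12 lower genes were still called, as were *Gabra4* and *Gabrg1*, but not *Gria3* (log2FC 0.20, edgeR adjusted p = 0.40) or *Gria4* (0.28, edgeR adjusted p = 0.19). With the neuronal marker level in the fit 16 genes were called, without *Grm7* (edgeR adjusted p = 0.10) and with *Gabra3* (edgeR adjusted p = 0.070). With the precursor marker level 13 were called, without *Gabbr1*, *Gabrg3*, and *Grm7* (edgeR adjusted p between 0.11 and 0.12). The part of the oligodendrocyte, microglial, and inhibitory neuron markers was not tested.

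In the dLG, 2 of the 31 genes were called, both higher (against 0.941% of all genes), *Grm8* and *Grin2d* as given above. The median log2FC was 0.17 for the 31 genes and -0.01 for all genes. *Grm8* was the 1 gene with every dLG library above the other nuclei (against 0.427% of all genes). Both calls held without each of the 13 libraries, and without replicate d of the dLG 7 genes were called. Calls over all genes rose as well without that library, from 163 higher and 37 lower to 383 and 101. *Grin2c*, which was lowest in the dLG, had a large SE (log2FC -3.49, SE 0.99, adjusted p = 0.18), and it was called with DESeq2 (adjusted p = 0.0044) and with the cortex in the fit (adjusted p = 0.038). Of the 3 markers of inhibitory neurons, 2 were higher in the dLG.

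In the MGv, 3 of the 31 genes were called, all higher (against 1.57% of all genes), with a median log2FC of 0.16 for the 31 genes and 0.02 for all genes. *Grin2c* was higher (log2FC 3.65, SE 0.84, adjusted p = 0.045), and its replicate a, at 13 counts, lay within the range of the VPM while the other 3 had between 105 and 192. *Grm2* was higher too (log2FC 2.09, SE 0.45, adjusted p = 0.032), with 2 high and 2 low libraries. Its replicate d lay above all of the dLG and its replicate c below all of the dLG. Group means were 1.68 CPM per kb in the MGv, 1.20 in the dLG, and 0.132 in the VPM. The MGv was not tested against the dLG alone. *Gabrg3* was at 24.0, 25.0, 18.4, and 26.6 CPM in the MGv, 15.1, 16.4, 12.8, 12.3, and 22.9 in the dLG, and 13.9, 13.6, 14.4, and 11.9 in the VPM (log2FC 0.70, SE 0.18, adjusted p = 0.073). None of the 3 calls held without each library in turn, and without replicate d of the MGv 0 were called (*Grin2c* adjusted p = 0.11, *Grm2* 0.21, and *Gabrg3* 0.25 by edgeR). The count was 6 without replicate c of the dLG, 5 without its replicate e, and 1 without replicate a or c of the VPM. Calls over all genes moved as well, from 272 higher and 131 lower to 134 and 72 without replicate d of the MGv. They were 466 and 237 without replicate c of the dLG and 369 and 210 without its replicate e. Without replicate a of the VPM they were 160 and 92, and without its replicate c 165 and 87. All MGv libraries carry library numbers of 1 series, which also holds 2 of the dLG and 2 of the VPM. With the series in the fit, 1 gene was called, against 149 higher and 89 lower over all genes. In that fit the log2FC was 3.44 for *Grin2c* (edgeR adjusted p = 0.20) and 0.73 for *Gabrg3* (edgeR adjusted p = 0.17). With the neuronal marker level in the fit 4 genes were called, without *Grin2c* and with *Gabra5* and *Grin2b*. With the precursor marker level 2 were called, without *Gabrg3*. Of the excitatory markers 1 of 2 was lower in the MGv and of the astrocyte markers 1 of 8 was higher. Of the 6 oligodendrocyte markers 0 were called by edgeR, but 5 had an unadjusted p under 0.05, with a median log2FC of -1.15. The part of the excitatory, astrocyte, and oligodendrocyte markers was not tested.

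Among auxiliary and scaffold genes, 12 of 34 were called in the VPM, 1 higher (against 7.07% of all genes) and 11 lower (against 9.78%), with a median log2FC of -0.39 against -0.02 for all genes. The lower ones with the lowest p were *Shisa9* (log2FC -0.79, SE 0.16, edgeR adjusted p = 0.010), *Cacng2* (-2.17, SE 0.46, edgeR adjusted p = 0.012), and *Shisa7* (-1.34, SE 0.32, edgeR adjusted p = 0.022), whose products act on AMPA receptors or, for *Shisa7*, also on GABA-A receptors. *Homer2*, a scaffold of metabotropic receptors, was higher (0.55, SE 0.19, edgeR adjusted p = 0.076). In the dLG *Cacng2* was higher (1.55, SE 0.38, edgeR adjusted p = 0.088) and *Cnih3* lower (-1.34, SE 0.33, edgeR adjusted p = 0.097), and in the MGv *Cacng3* was higher (3.32, SE 0.85, edgeR adjusted p = 0.075).

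Libraries of 1 group also differed in the transcripts of neurons, and 3 of the 31 genes moved with them. The neuronal marker level, the mean log2(CPM + 0.5) of the 10 neuronal markers, ranged from 6.47 to 6.76 in the cortex, 6.73 to 7.27 in the dLG, 5.82 to 7.17 in the VPM, and 5.74 to 7.32 in the MGv. In a fit with the 4 groups, the slope of the log2 level on this measure was 1.35 ± 0.25 (SE) for *Gabra5* (edgeR adjusted p = 0.0059), 1.34 ± 0.35 for *Grm2* (adjusted p = 0.094), and 1.19 ± 0.31 for *Grm4* (adjusted p = 0.076), against 1.47% of all genes with a positive slope called. In the MGv libraries with marker levels of 7.32, 7.13, 5.92, and 5.74, *Gabra5* was at 59.2, 36.9, 10.2, and 12.3 CPM. The markers themselves have slopes near 1 by construction, since the level is their mean, and their own median slope was 1.05. *Grm3* (0.18 ± 0.16), *Gria2* (0.14 ± 0.11), *Gabrb1* (0.15 ± 0.14), *Gabbr1* (0.02 ± 0.13), and *Gabrg1* (0.07 ± 0.17) had slopes near 0. In all, 7 of the 31 genes had an unadjusted p under 0.05, among them *Gria4* (0.34 ± 0.12, edgeR adjusted p = 0.34), *Gria1* (0.36 ± 0.13), *Grin1* (0.35 ± 0.13), and *Gabra2* (0.45 ± 0.18), which were not called. The *Gabra5* slope was called in all 7 alternatives and without each library, and those of *Grm2* and *Grm4* in 1 and 4 of the 7, and without 4 and 3 of the 17 libraries. Of the auxiliary and scaffold genes, *Cacng2* and *Cacng5* were called, which are named here after their values were seen.

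**Figure D5:**
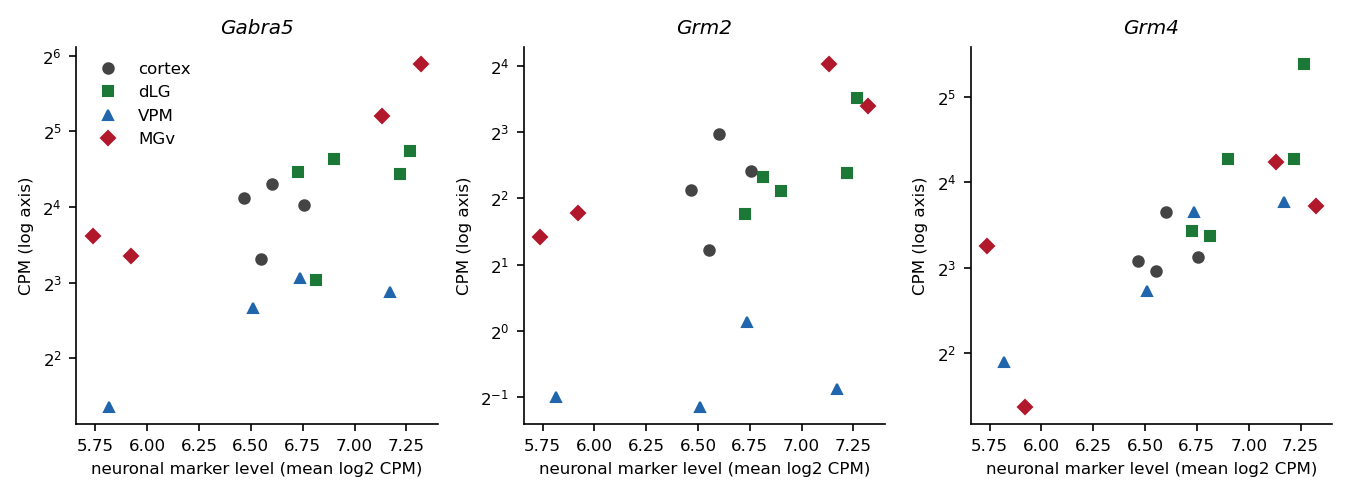
Level of *Gabra5*, *Grm2*, and *Grm4* in CPM (log axis) against the neuronal marker level, the mean log2(CPM + 0.5) of 10 neuronal markers, with 1 symbol per library. In the MGv the 2 libraries with marker levels above 7 lie above the 2 with levels below 6 for all 3 genes, and in the VPM *Grm2* stays between 0.450 and 1.10 CPM at every marker level.

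No member was called on the level of precursor markers, which ranged from 9.30 to 10.05 over the libraries, and over all genes 0.0336% were called by edgeR. An unadjusted p under 0.05 was found for 6 of the 31, and DESeq2 was not run on this slope. *Grin3a* (slope 0.82 ± 0.20, SE), *Grin2d* (1.57 ± 0.35), *Grik3* (1.55 ± 0.43), and *Grik5* (1.44 ± 0.46) had edgeR adjusted p between 0.18 and 0.31. *Gabbr2* (0.91 ± 0.37) and *Gria2* (-0.52 ± 0.23) had edgeR adjusted p of 0.44 and 0.49. Of the 6 precursor markers themselves, 1 was called by edgeR and 5 had an unadjusted p under 0.05. The lack of calls thus cannot show that members did not move with precursor transcripts. The SEs of the slopes of the 31 genes reached 1.52.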

How the data were processed

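The authors aligned the reads of each library to the mouse genome and counted them per gene, and deposited 1 file of raw counts per library, with no normalization. The submitters' processing notes name FastQC 0.11.7, STAR 2.7.0d, SAMtools 1.9, and featureCounts of Subread 1.6.4. The library kit did not mark strand, and the strand setting of the counting is not given in the sources used here. The 31 members, the auxiliary and marker lists, and the tests were chosen with earlier results of these data known.

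Counts of all genes were fitted with edgeR 4.0.16 (robust quasi-likelihood test, TMM factors, filterByExpr with a minimum of 10 counts) in R 4.3.3, with limma 3.58.1. Thalamus was compared with cortex over 17 libraries, and each nucleus with the mean of the other 2 over 13 libraries. Genes were called at a Benjamini-Hochberg adjusted p under 0.1 over all genes tested, log2FC are on the log2 scale, and SEs were derived from the F statistic. All 31 members are named, and of the 34 auxiliary and scaffold genes up to 3 per direction and comparison with the lowest p among those called. Subunit shares were compared by 2-sided exact permutation tests in Python 3.11.15 with scipy 1.17.1. Slopes on marker levels were fitted over 17 libraries with the 4 groups in the model, with a pseudocount of 0.5 CPM for the marker levels. The fits were tested on simulated data. Alternatives were DESeq2 1.42.0, its size factors, other filters, a replicate block, covariates, a shared fit of the 4 groups, each library left out, and, chosen after seeing the data, the removal of a trend on GC content (lowess span 0.3). Lengths, coordinates, and sequences were from the GENCODE annotation of GRCm38.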

Additional observations from a re-analysis of the deposited data

Results flagged for a closer look

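In 12 of 124 groups of 4 or 5 libraries, the gap between 1 library and the nearest of the others took a larger share of the group's range than the 95% critical value of Dixon's test allows. Chance alone gives about 1 in 20 groups, or 6.2 of 124. In the VPM, *Grik1* was at 55.7 CPM in replicate c and between 48.0 and 48.6 in the others. *Grik2* was at 20.2 CPM in VPM replicate b, against 39.0 to 42.1, and *Grm5* at 128.4 CPM in the same library, against 119 to 120.4. *Grin2b* was at 10.6 CPM in VPM replicate c, against 12.03 to 12.2. In VPM replicate a, *Grm2* was at 1.10 CPM, against 0.450 to 0.542, and *Gabbr1* at 372 CPM, against 427 to 436. In the dLG, replicate c stood apart for 3 genes, with *Grm2* at 11.4 CPM against 3.38 to 5.21, *Grm4* at 41.7 against 10.4 to 19.4, and *Gabra2* at 55.4 against 83.4 to 92.6. This library also had the fewest genes detected, 17749. *Gabra5* was at 8.17 CPM in dLG replicate e, against 21.7 to 26.7. *Gabrg1* was at 232 CPM in cortex replicate c, against 351 to 371, and *Gabbr2* at 300.0 CPM in MGv replicate b, against 193 to 209.6. The causes were not tested.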

How the results depend on the processing

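Between thalamus and cortex, the count of members called stayed between 7 and 11 of 31 under every alternative and without each library. In the dLG the count of 2 became 5 with DESeq2 and 1 with the replicate letter as a block, and lay between 2 and 7 without 1 library. In the VPM the count of 16 became 9 at an adjusted p under 0.05, and lay between 7 and 18 without 1 library. It was 13 with the library number series in the fit, without *Gabbr1*, *Gria4*, and *Grin3a*. Over all genes that fit called 1017 higher and 1652 lower, against 1224 and 1693 without the series. Without the filter on low counts 12 members were called, and *Gabrg3*, *Gria4*, *Grin3a*, and *Grm7* were lost. In the MGv the count of 3 became 6 with DESeq2, 5 with the block, 1 with the library number series in the fit, and 6 with the cortex in the fit, and lay between 0 and 6 without 1 library. For the slope on the neuronal marker level, the count of 3 became 1 at an adjusted p under 0.05, 1 in the thalamic libraries alone, and 1 with the block, and lay between 1 and 3 without 1 library. The difference in the *Grin2b* share was 13.3 points within the largest library number series and no longer passed its test, while those in the *Gria2* and *Grik2* shares were -18.8 and -11.1 points (exact permutation test, adjusted p = 0.089 for both). For single genes, 45 calls were lost and 34 gained over all other settings, 102 were lost and 27 gained without 1 library, and no call changed sign. Whether the replicate letters pair the libraries is not stated in the sources used here. Of 24 same-letter pairs, 6 had deviations from the group mean correlated above 0.1 (range -0.173 to 0.266). All pairs of letter d were positive (0.0261 to 0.256), and pairs of different letters ranged from -0.451 to 0.355. Such correlations cannot show whether same-letter libraries share brains. The block leaves dLG replicate e, and the series leaves dLG replicate c, without a partner. With the block, *Gabbr2* was lost and *Grik2* gained between thalamus and cortex (edgeR adjusted p = 0.15 and 0.089), and *Grin2d* was lost in the dLG (edgeR adjusted p = 0.10). Over all genes, DESeq2 called 1704 higher and 1258 lower in the thalamus (edgeR 974 and 1059), 436 and 156 in the dLG (edgeR 163 and 37), and 614 and 355 in the MGv (edgeR 272 and 131). The causes were not tested. At these depths, *Grin2c* in the dLG and *Grm2* and *Grm8* in the VPM rest on at most 23 counts per library.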
